A study of Mus musculus with 4 samples.

Results

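The liver X receptors (LXR) and 6 genes that they are known to switch on in sterol handling were followed by symbol through liver RNA sequencing of obese mice. These 8 genes are Nr1h3, Nr1h2, Abca1, Abcg1, Abcg5, Abcg8, Mylip and Lpcat3, among 24346 gene symbols listed, and all 8 were above 1 FPKM in all 4 libraries. By its definition, FPKM counts sequenced fragments relative to exon length and to the mapped total of the library. Levels can thus be set side by side between genes. The deposited values may also carry a scaling between libraries, described below with the FPKM sums. The mice were male and carried ob/ob in every group, a genotype without leptin, so that no lean control was measured. They were 6 weeks old when feeding began and stayed on the diet for 4 weeks. CD was a chow diet, WD a high fat diet with cocoa butter and more sucrose, and cholesterol made up 1% of both. On CD+7KC and WD+7KC, 7-ketocholesterol (7KC), a product of cholesterol oxidation, was added at 0.01% of the diet. Each group had 1 library, how many mice went into it is not given in the sources used here, and no difference below has a replicate check or a p-value.

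LXR is a nuclear receptor that sits on DNA with a retinoid X receptor (RXR) partner and turns genes on when it binds oxysterols, the oxidized forms of cholesterol. Nr1h3 encodes LXRα, which is abundant in liver, and Nr1h2 encodes LXRβ, which is present in most cells. Among the target genes, Abca1 and Abcg1 encode transporters that pass cellular cholesterol to high density lipoprotein, and Abcg5 and Abcg8 encode partners that form 1 transporter, which secretes sterols into bile. Mylip, also called IDOL, encodes a ubiquitin ligase that marks membrane proteins of lipoprotein uptake for degradation, and Lpcat3 encodes an acyltransferase that puts polyunsaturated fatty acids into phospholipids.

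The promoters are shown for Abca1, the standard LXR target, and for Abcg5 and Abcg8, the pair whose levels moved most alike. RefSeq promoter windows on GRCm38.p6 were found for 7 of the 8 genes, and none was used for Abcg1. The 250 bases before the start of Abca1, at chr4:53159896-53160145 on the minus strand, have in capitals the best match to a DR4 element, the paired site on which LXR and RXR bind. It was searched as a copy of AGGTCA, any 4 bases and again AGGTCA, on both strands. The best match lay 67 to 52 bases before the start with 9 of the 12 fixed letters. It was on the strand opposite to the printed one, so that the capitals show its reverse complement.
Abca1: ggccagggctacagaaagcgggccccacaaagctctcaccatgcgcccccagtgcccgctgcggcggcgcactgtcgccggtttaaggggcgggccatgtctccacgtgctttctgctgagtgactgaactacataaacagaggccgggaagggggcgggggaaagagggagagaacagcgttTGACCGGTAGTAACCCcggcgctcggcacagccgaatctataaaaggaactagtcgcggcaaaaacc

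Of 32851 promoter windows of the same length, 18.5% held a match at least as good, so that this number of letters is common. The other windows reached 8 of 12 letters, which 70.6% of windows did, except that of Mylip, whose best match had 6. Abcg5 and the shorter Abcg8 mRNA have 109 bases between their starts and are read away from each other on chromosome 17, at chr17:84683012-84683120. The stretch is printed on the Abcg8 strand, with AGATAA, the core motif of GATA factors, in capitals at both of its places, where it reads as TTATCT on the printed strand. This motif was chosen after the sequence had been read.
Abcg5 and Abcg8: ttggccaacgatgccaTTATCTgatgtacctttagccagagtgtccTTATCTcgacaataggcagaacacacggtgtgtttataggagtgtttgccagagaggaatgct

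At least 1 AGATAA on either strand was found in the 109 bases before the start in 3.98% of the 32851 windows, and at least 2 in 0.186%. The best DR4 match between the genes had 8 of 12 letters in 3 places, which 39.8% of stretches of that length equalled or passed. These letters are a description of the sequence, and binding was not measured in these samples.

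The depth estimated from the steps of low FPKM values was 11000000 fragments on both CD and CD+7KC, 9400000 on WD and 12100000 on WD+7KC. The sum of all FPKM values ran from 602059 on WD+7KC to 715605 on CD, and rescaling to equal sums (called TPM below) raises every log2 fold change of WD+7KC by 0.216 against WD and by 0.209 against CD+7KC. Rescaling each library by its median ratio to the mean level of each gene hardly moved the deposited values. Abcg1 on WD+7KC relative to WD was 1.11 either way. The deposited values thus already lay close to equal median ratios, and medians near 0 over all genes go with that scale. Hepatocyte markers were present in every library, with Alb between 30014 and 35981 FPKM. Of 4 adipocyte markers, Plin1 and Lep were listed at 0 in all 4 libraries and Adipoq reached at most 0.088 FPKM. Cidea, the fourth, ran from 39.7 to 142.8 FPKM. Of the 8 genes, 1 was past a log2 fold change of 1 on WD+7KC relative to WD, beside 9.0% of all genes. The count was 0 on CD+7KC relative to CD, beside 6.75%, and 0 on WD relative to CD, beside 9.69%. On WD+7KC relative to CD+7KC it was 1, beside 12.6%. The gene was Abcg1 in both cases, and with a pseudocount of 1 it was no longer past 1 in either, at 0.865 and 0.914.

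**Figure D1:**
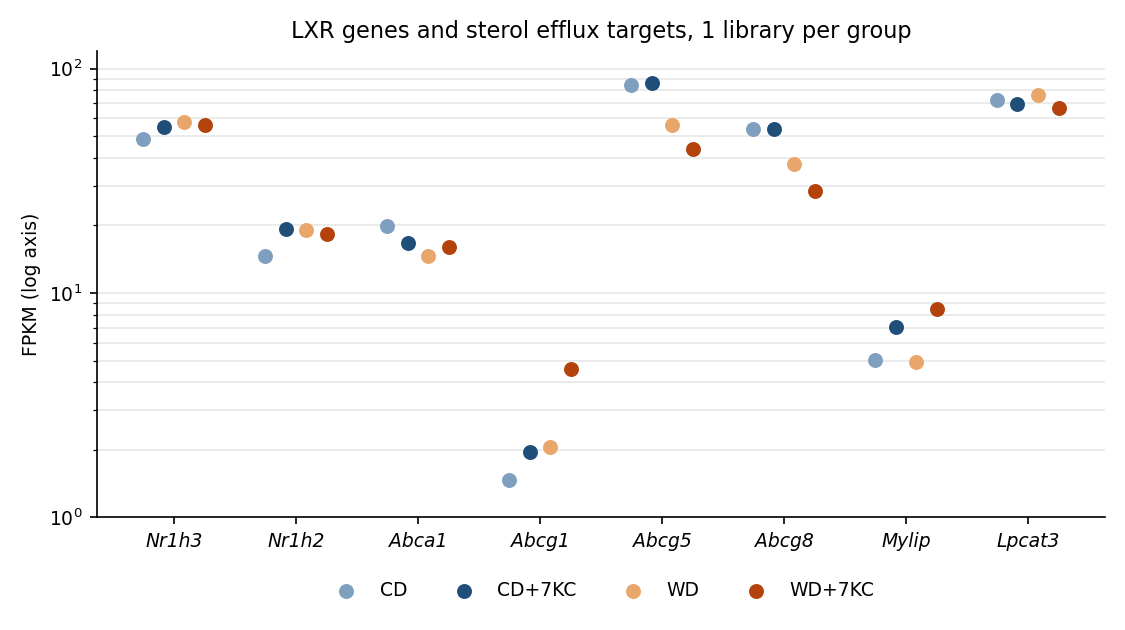
FPKM of the 8 genes on a log axis, with 1 point for each library, coloured by diet. Abcg1 and Mylip are the lowest genes and stand highest on WD+7KC, whereas Abcg5 and Abcg8 go from 84.2 and 53.5 FPKM on CD to 43.9 and 28.5 FPKM on WD+7KC.

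The receptor genes were lowest on CD and close together in the other 3 libraries. Nr1h3 stood at 48.4 FPKM on CD, 54.7 on CD+7KC, 58.0 on WD and 55.9 on WD+7KC. Its annotation overlaps that of Gm13783, a processed transcript on the same strand, by 6873 bases. Gm13783 is not among the symbols listed, and reads in that overlap cannot be told apart by strand. Nr1h2 stood at 14.7 FPKM on CD, 19.4 on CD+7KC, 19.1 on WD and 18.4 on WD+7KC. LXRα mRNA was thus 2.82 to 3.3 times as high as LXRβ mRNA on the FPKM scale, with the largest ratio on CD. The log2 fold change of Nr1h2 on CD+7KC compared to CD was 0.40, with a 95% interval of 0.179 to 0.63. Intervals of this kind are exact intervals on the estimated reads and cover counting error only, not the variation between mice. For Nr1h3 the same comparison gave 0.17 (0.0367 to 0.312). On WD+7KC compared to WD both intervals included 0, with -0.053 (-0.187 to 0.0785) for Nr1h3 and -0.060 (-0.278 to 0.154) for Nr1h2. Both values were above 0 after rescaling to TPM, at 0.16 each, where the interval of Nr1h3 no longer included 0 (0.0294 to 0.295) and that of Nr1h2 did (-0.0614 to 0.371). Between the diets without 7KC, Nr1h3 was higher on WD by 0.26 (0.119 to 0.401) and Nr1h2 by 0.38 (0.153 to 0.622).

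Abcg1 had the widest range of the 8 genes and was the lowest of them in every library. It stood at 1.47 FPKM on CD, 1.96 on CD+7KC, 2.07 on WD and 4.58 on WD+7KC, from 91, 122, 109 and 313 estimated reads. The WD+7KC library was the high one, and the other 3 were within 1 FPKM of each other. WD+7KC was 2.22-fold higher than WD, a log2 fold change of 1.11 (0.839 to 1.49), and 2.34-fold higher than CD+7KC, at 1.18 (0.915 to 1.54). On CD+7KC compared to CD the value was 0.39 (0.0144 to 0.826), and on WD compared to CD 0.46 (0.067 to 0.9). The step with 7KC was larger under WD than under CD by 0.72 on the log2 scale (counting interval 0.216 to 1.22), and by 0.90 in TPM.

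Abca1, its partner in efflux to high density lipoprotein, did not share this pattern. It stood at 19.95 FPKM on CD, 16.8 on CD+7KC, 14.7 on WD and 16.01 on WD+7KC, and CD was the high library. Its log2 fold change was -0.25 (-0.342 to -0.162) on CD+7KC compared to CD and 0.13 (0.0272 to 0.228) on WD+7KC compared to WD. On WD compared to CD it was -0.44 (-0.543 to -0.347). The ratio of Abca1 to Abcg1 was 13.6 on CD, 8.54 on CD+7KC, 7.1 on WD and 3.49 on WD+7KC. Abca1 is expressed in hepatocytes and macrophages alike, whereas Abcg1 is known mainly from macrophages and endothelium, which stand beside hepatocytes in bulk liver.

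Summed markers of both of those cell types were, like Abcg1, higher with 7KC under each diet, whereas the endothelial sum was lower on WD than on CD. The sum of 18 macrophage and Kupffer cell markers, such as Adgre1, Cd68 and Clec4f, was 316.0 FPKM on CD, 433.2 on CD+7KC, 502.1 on WD and 906.9 on WD+7KC. This sum follows Lyz2, C1qb, C1qc, Tyrobp and C1qa most. On WD+7KC they stood at 147.4, 134.7, 116.8, 107.1 and 95.7 FPKM, beside 14.9 for Adgre1. All 18 were higher on WD+7KC than on WD, the median log2 fold change being 0.91, and 16 were higher on CD+7KC than on CD, with a median of 0.44. The sum of 10 endothelial markers was 91.1 FPKM on CD, 119.5 on CD+7KC, 70.4 on WD and 178.7 on WD+7KC, and all 10 were higher on WD+7KC than on WD, with a median of 1.48. For every 100 FPKM of macrophage markers there was 0.465 FPKM of Abcg1 on CD, 0.453 on CD+7KC, 0.411 on WD and 0.506 on WD+7KC. Against the single macrophage marker Adgre1, the gene of F4/80, the ratio of Abcg1 was 0.503 on CD, 0.363 on CD+7KC, 0.411 on WD and 0.307 on WD+7KC, so that WD+7KC was highest by the summed markers and lowest by Adgre1. For every 100 FPKM of endothelial markers Abcg1 ran from 1.61 on CD to 2.93 on WD. All of these ratios spanned a narrower range than Abcg1 itself, whose highest value was 3.12 times its lowest. In bulk liver, more or fewer cells of a type cannot be told apart from more or less RNA per cell. What part these markers had in the level of Abcg1 was not tested.

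**Figure D2:**
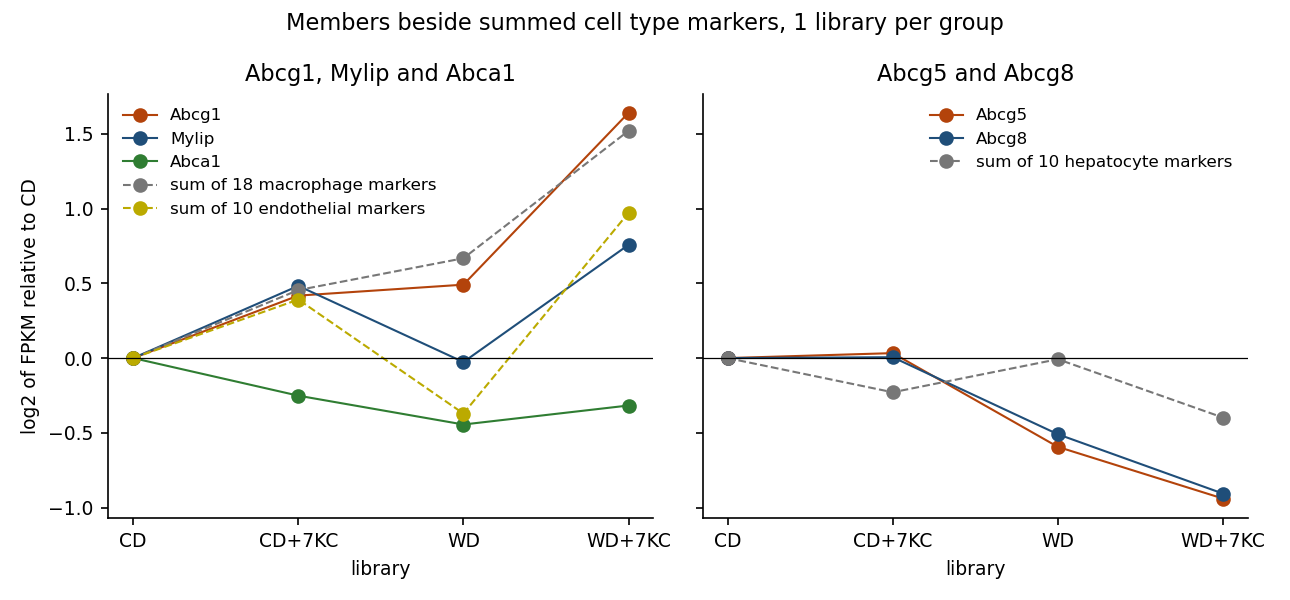
Log2 of FPKM relative to the CD library (vertical axis) in the 4 libraries (horizontal axis), for Abcg1, Mylip and Abca1 beside the summed macrophage and endothelial markers, and for Abcg5 and Abcg8 beside the summed hepatocyte markers. Each point is 1 library and lines only join points. Abcg1 and the macrophage sum are lowest on CD and highest on WD+7KC, and Abca1 is below its CD level in the other 3 libraries.

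The genes nearest to Abcg1 in pattern were sought among 10685 genes whose mean reached 1 FPKM, by the root mean square difference of centred log2 values over the 4 libraries. They were Slc11a1 (0.046), Fabp7 (0.057), Fyb (0.059), Cd38 (0.065) and Csf2ra (0.067). Slc11a1, a metal transporter of phagocytes, stood at 2.77 FPKM on CD, 3.79 on CD+7KC, 3.82 on WD and 9.11 on WD+7KC. Over only 4 libraries, such likeness is a description. Among the 8 genes themselves the nearest to Abcg1 was Mylip, at 0.37, much farther away.

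Abcg5 and Abcg8, the sterol secretion pair, were lower in both WD libraries than in both CD libraries. Abcg5 stood at 84.2 FPKM on CD, 86.2 on CD+7KC, 55.8 on WD and 43.9 on WD+7KC. Abcg8 stood at 53.5 FPKM on CD, 53.7 on CD+7KC, 37.6 on WD and 28.5 on WD+7KC. The CD libraries with and without 7KC were almost level, and the WD+7KC library was the lowest for both genes. Compared to CD, WD had log2 fold changes of -0.59 (-0.701 to -0.488) for Abcg5 and -0.51 (-0.64 to -0.381) for Abcg8. With 7KC in both diets, the log2 fold change of WD relative to CD was -0.97 (-1.08 to -0.868) for Abcg5 and -0.91 (-1.04 to -0.784) for Abcg8, and in TPM it was -0.76 and -0.70.

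Adding 7KC to CD left both genes near 0, at 0.033 (-0.0569 to 0.123) for Abcg5 and 0.0058 (-0.106 to 0.118) for Abcg8. Adding it to WD gave -0.35 (-0.465 to -0.225) and -0.40 (-0.543 to -0.252). The difference between those steps was -0.38 (-0.527 to -0.23) for Abcg5 and -0.40 (-0.583 to -0.22) for Abcg8 in counting error alone, and in TPM it was -0.20 and -0.23. After rescaling to TPM the steps under WD shrank to -0.13 and -0.18, nearer to 0 than the counting intervals of the deposited values but of the same sign.

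The ratio of Abcg5 to Abcg8 hardly varied, at 1.57 on CD, 1.6 on CD+7KC, 1.48 on WD and 1.54 on WD+7KC. Of all pairs among the 8 genes, these were the nearest in pattern, with a root mean square difference of 0.042, followed by the receptors Nr1h3 and Nr1h2 at 0.08. They are also neighbours that share bases. In GENCODE, Abcg5 lies at chr17:84658234-84683011 on the minus strand and Abcg8 at chr17:84676302-84700333 on the plus strand, since a longer Abcg8 mRNA starts inside Abcg5, and their gene bodies overlap over 6710 bases. The library kit keeps the strand of the RNA, but whether the counting used it is not given in the sources used here, so that reads in that overlap are uncertain for either gene.

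Hepatocyte markers, the cell type in which this pair is known to be expressed in liver, had lower sums with 7KC under each diet. The sum of 10 of them was 59260 FPKM on CD, 50570 on CD+7KC, 58950 on WD and 44970 on WD+7KC, and all 10 were lower on WD+7KC than on WD, the median log2 fold change being -0.34. In TPM 6 were lower and 4 higher, with a median of -0.13. For every 100 FPKM of hepatocyte markers Abcg5 stood at 0.142 on CD, 0.17 on CD+7KC, 0.0946 on WD and 0.0976 on WD+7KC, and Abcg8 at 0.0903, 0.106, 0.0638 and 0.0635. On this scale both genes were lower in the WD libraries than in the CD libraries, and WD and WD+7KC were close to each other. Alb alone made up 35084 FPKM of the sum on CD, so that the scale follows Alb most. By marker, 8 of 10 were lower and 2 higher on WD than on CD, with a median of -0.24. On WD+7KC compared to CD+7KC 9 were lower and 1 higher, with a median of -0.52. In TPM 7 were lower and 3 higher in both, with medians of -0.21 and -0.31. What part the hepatocyte markers had in the level of the pair was not tested.

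**Figure D3:**
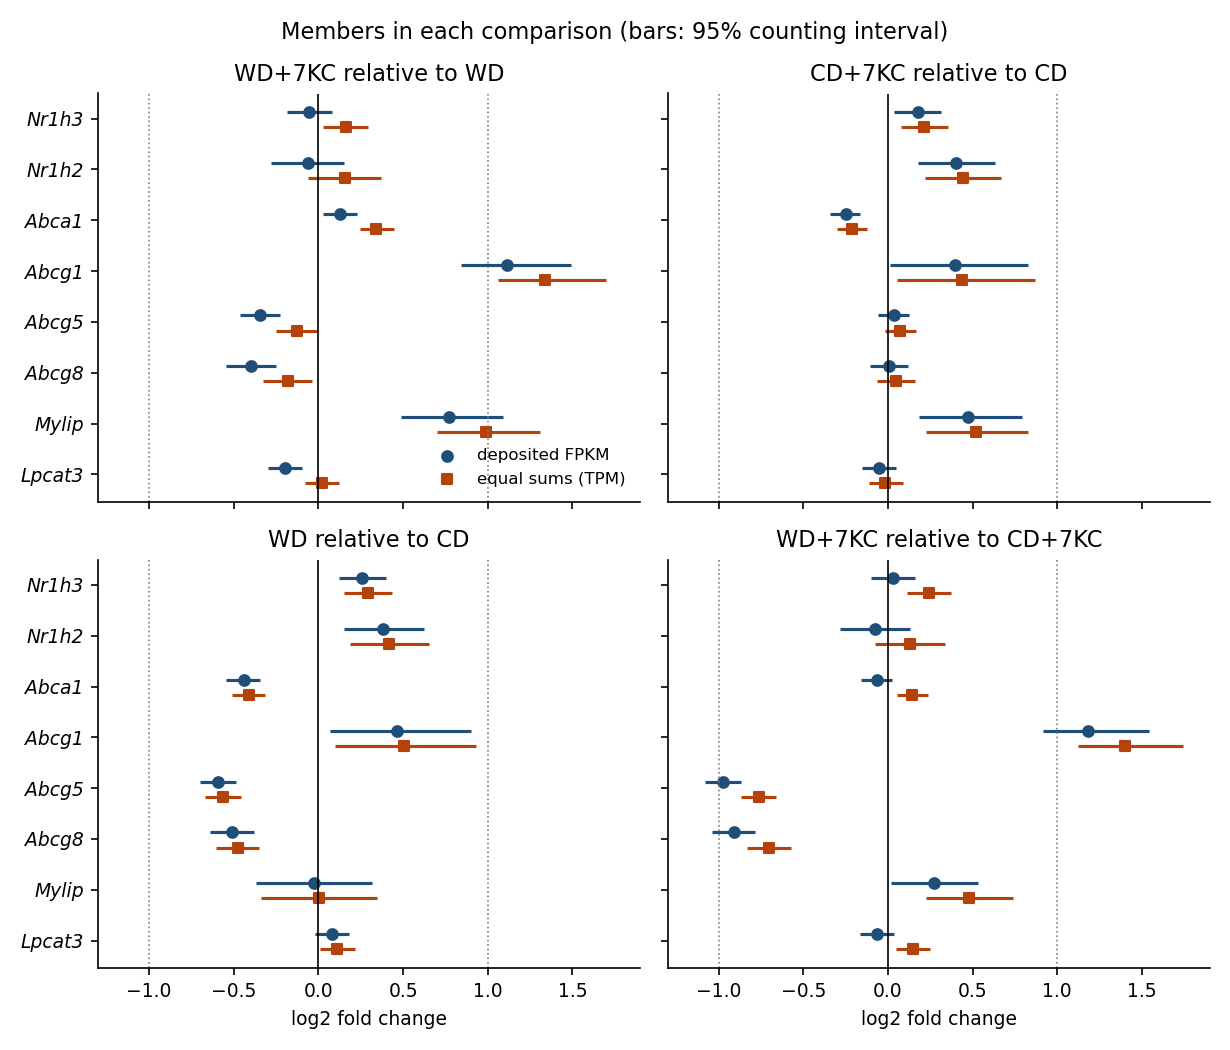
Log2 fold change of the 8 genes (horizontal axis) in each of the 4 comparisons, on deposited FPKM (circles) and after rescaling to equal sums (TPM, squares). Bars are 95% counting intervals and dotted lines mark a log2 fold change of 1 in either direction. Abcg1 lies past 1 on WD+7KC relative to WD and to CD+7KC on both scales, and Abcg5 and Abcg8 lie left of 0 in every comparison that involves WD.

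Mylip was higher in the library with 7KC under both diets. It stood at 5.03 FPKM on CD, 7.03 on CD+7KC, 4.93 on WD and 8.50 on WD+7KC, from 158, 222, 133 and 295 estimated reads. Its log2 fold change was 0.77 (0.485 to 1.09) on WD+7KC compared to WD and 0.48 (0.185 to 0.789) on CD+7KC compared to CD, a difference between the diets of 0.30 whose counting interval included 0 (-0.12 to 0.714). The level on WD and CD without 7KC differed by -0.026 (-0.371 to 0.315). Mylip per 100 FPKM of macrophage markers was lower on WD (0.983) and WD+7KC (0.937) than on CD (1.59) and CD+7KC (1.62). Per 100 FPKM of endothelial markers it was 5.52 on CD, 5.88 on CD+7KC, 7.01 on WD and 4.76 on WD+7KC, so that WD was highest there.

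Lpcat3 was the steadiest of the 8 genes, at 72.4 FPKM on CD, 69.7 on CD+7KC, 76.5 on WD and 66.7 on WD+7KC. Its highest value was 1.15 times its lowest. The log2 fold change was -0.20 (-0.297 to -0.0946) on WD+7KC compared to WD, but 0.020 (-0.0809 to 0.122) in TPM, and -0.054 (-0.154 to 0.0462) on CD+7KC compared to CD. Its annotation overlaps that of Emg1 on the opposite strand by 334 bases, and Emg1 ran from 29.2 to 37.8 FPKM. The related lysophospholipid acyltransferases were low in comparison. Of 6, 5 were higher on WD+7KC than on WD and 4 were higher on CD+7KC than on CD, but Mboat1 was listed at 0 on WD and Mboat2 at 0 on CD+7KC. Lpcat2, a form known from inflammatory cells, was higher with 7KC by 0.64 under WD and 0.28 under CD, and Mboat7, the most abundant of them at 11.8 to 13.6 FPKM, had -0.15 and 0.11. Lpcat1, singled out after its values were seen, went from 0.226 FPKM on WD to 2.05 on WD+7KC.

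In order of level, Abcg5, Lpcat3 and Abcg8 led on CD, and Lpcat3, Nr1h3 and Abcg5 led on WD and WD+7KC. Mylip was next to last and Abcg1 last in all 4 libraries. Neighbours in this order could not be tested against a spread between mice. Over the 8 genes, the median log2 fold change was -0.057 on WD+7KC compared to WD, with 3 genes higher and 5 lower, beside a median of 0.0021 over all genes. In TPM the same median was 0.16, with 6 higher and 2 lower, beside 0.21 over all genes, 73.0% of which were higher. On CD+7KC compared to CD it was 0.10, with 6 higher and 2 lower, beside -0.0012 over all genes. On WD compared to CD it was 0.026, with 4 higher and 4 lower, beside 0.0097, and on WD+7KC compared to CD+7KC it was -0.064, with 3 higher and 5 lower, beside 0.0026. The comparisons share libraries and are not independent of each other.

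At a lower threshold, a fold of 1.5 in either direction, set together with a minimum of 1 FPKM after the data had been seen, the 8 genes were read against another background. On WD+7KC compared to WD, Abcg1 and Mylip were past it, 2 of the 8 beside 12.6% of genes. On CD+7KC compared to CD none was, beside 8.36% of genes. On WD compared to CD only Abcg5 was, beside 16.8%, and in TPM it was not. On WD+7KC compared to CD+7KC, Abcg1, Abcg5 and Abcg8 were, beside 22.3%.

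The receptor partners and cofactors of LXR stayed within a log2 fold change of 1 with 7KC. Rxra, the main RXR gene of liver, stood at 74.2 FPKM on CD, 74.5 on CD+7KC, 84.1 on WD and 76.1 on WD+7KC. Of 19 such genes, 13 were higher and 6 lower on WD+7KC than on WD, with a median of 0.16, and 10 were higher and 9 lower on CD+7KC than on CD, with a median of 0.0056. In TPM the first comparison had 18 higher and 1 lower, with a median of 0.37, beside 73.0% of all genes higher and a median of 0.21. The deacetylase gene Sirt1 was highest in the first comparison at 0.67 and Rxrb lowest at -0.29. In the second, Rxrg was highest at 0.78, and Tbl1xr1, of the corepressor complex, lowest at -0.37.

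Of 19 other LXR target genes, 11 were higher and 8 lower on WD+7KC than on WD, with a median of 0.025, and 9 were higher and 10 lower on CD+7KC than on CD, with a median of -0.0047. In TPM the numbers on WD+7KC relative to WD were 13 and 6, with a median of 0.24, beside 73.0% of all genes higher and a median of 0.21. On CD+7KC relative to CD they were 11 and 8, with a median of 0.035, beside 57.6% of all genes higher and a median of 0.035. The lipogenic regulator Srebf1 stood at 77.9 FPKM on CD, 81.4 on CD+7KC, 78.0 on WD and 62.3 on WD+7KC. Past 1 on WD+7KC compared to WD were 4 of the 19, beside 9.0% of all genes. They were the desaturase gene Scd2 (1.04), Cd5l (1.09), Mertk (1.17) and Arl4c (1.17). On CD+7KC compared to CD, Scd2 (1.13) and Cd5l (1.10) were past 1, beside 6.75% of all genes. With a pseudocount of 1, only 1 of the 19 was past 1 in either comparison. Arl4c was low, at 0.729 FPKM on WD and 1.77 on WD+7KC. Cd5l is a secreted protein of macrophages and Mertk a receptor by which they take up dying cells. The largest decrease under both diets was in Cyp7a1, the rate-limiting enzyme of bile acid synthesis, at -0.99 under WD and -0.66 under CD.

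**Figure D4:**
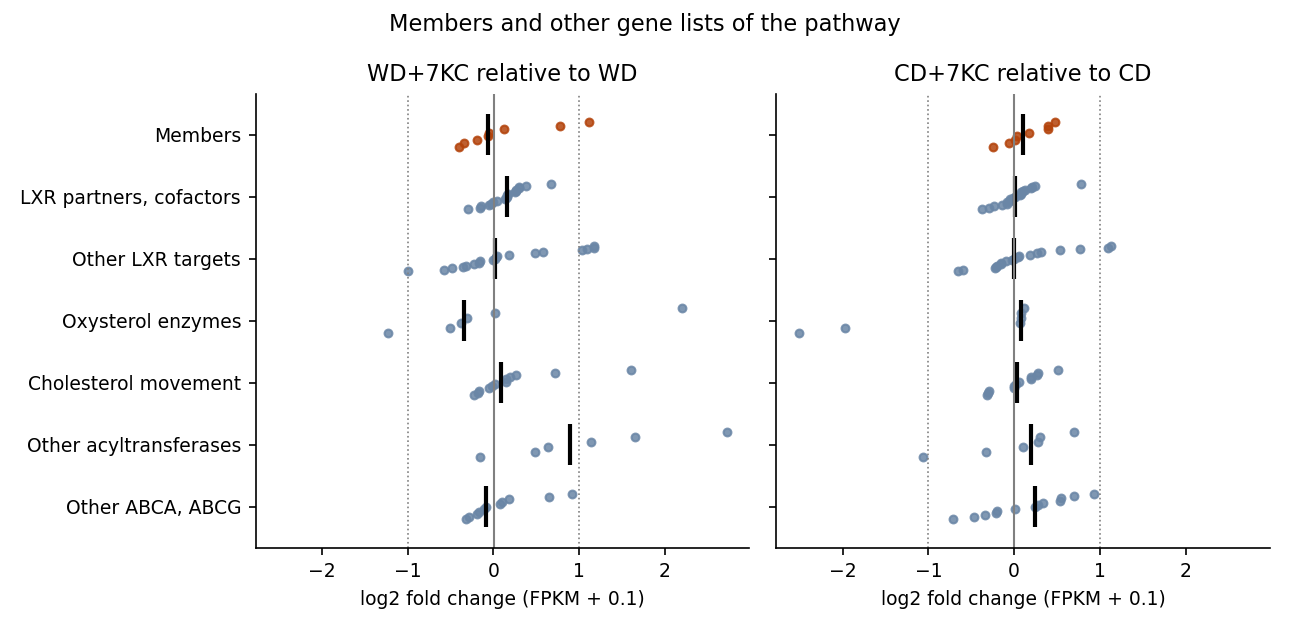
Log2 fold change of FPKM + 0.1 (horizontal axis) for each gene of the 8 members and of 6 other gene lists, on WD+7KC relative to WD and on CD+7KC relative to CD. Each point is 1 gene, thick marks are medians, dotted lines mark 1 in either direction, and points of genes listed at 0 in 1 library depend on the pseudocount. The median of the 8 members lies at -0.057 with 7KC under WD and at 0.10 under CD.

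The enzymes that make or use oxysterols were divided. Of 6, 4 were lower on WD+7KC and 2 higher than on WD, with a median of -0.34, and 4 were higher and 2 lower on CD+7KC than on CD, with a median of 0.076. Cyp27a1, which makes 27-hydroxycholesterol, stood at 172.5 FPKM on CD, 186.2 on CD+7KC, 153.2 on WD and 108.1 on WD+7KC, a log2 fold change with 7KC of -0.50 under WD and of 0.11 under CD. Hsd11b1, whose enzyme is known to reduce 7KC, stood at 408.7, 429.3, 286.5 and 221.1 FPKM in the same order, and it was named after its values were seen. Cyp46a1 had the highest change under WD among the better expressed genes, at 0.018. No fold is given for Ch25h, which was listed at 0 on WD, or for Sult2b1, listed at 0 on CD+7KC.

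Of 12 genes that move cholesterol inside and out of the hepatocyte, 7 were higher and 5 lower with 7KC under each diet, with medians of 0.086 under WD and 0.039 under CD. In TPM 11 were higher and 1 lower under WD, with a median of 0.26, beside 73.0% of all genes higher and a median of 0.21. Npc1, the lysosomal cholesterol transporter, was the lowest of the better expressed genes under both diets, at -0.22 and -0.31. Gramd1b, which carries cholesterol from the plasma membrane to the endoplasmic reticulum, was past 1 under WD, at 1.61, from 0.364 FPKM on WD and 1.32 on WD+7KC. Under CD it was 0.51. Abcb11 and Abcb4, the canalicular bile salt and phospholipid pumps that work beside Abcg5 and Abcg8, differed by -0.016 and -0.17 under WD and by 0.20 and -0.0041 under CD. Of 18 other ABCA and ABCG genes, 11 were above 0 on WD or WD+7KC, 5 of them higher and 6 lower (median -0.081). In TPM 9 were higher and 2 lower (median 0.14), beside 73.0% of all genes higher and a median of 0.21. Of 13 on CD or CD+7KC, 8 were higher and 5 lower (median 0.24). Abcg3 was the highest in both, at 0.92 and 0.93, Abcg2 the lowest of the better expressed genes under WD at -0.32, and Abca5 under CD at -0.71.

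Markers of the other cell types of liver gave no common direction. Of 8 stellate cell markers, 4 were higher and 4 lower on WD+7KC than on WD, with a median of -0.0024, and 1 was higher and 7 lower on CD+7KC than on CD, with a median of -0.59. Of 5 cholangiocyte markers, 4 were higher under WD and none under CD, with medians of 0.28 and -0.44. Krt19, Krt7, Epcam and Sox9 reached at most 1.09 FPKM, whereas Spp1 ran from 43.7 FPKM on CD+7KC to 183.0 on WD+7KC. Of 8 lymphocyte markers, 4 were higher under WD and 5 under CD, at summed levels of 1.77 to 4.97 FPKM. Of 4 adipocyte markers, Cidea was the one above 0 in all libraries, and it ran from 142.8 FPKM on CD to 39.7 on WD+7KC. Of 4 intestinal markers, Cdx2 was listed at 0, Vil1 and Sis stayed under 0.2 FPKM, and Fabp2 ran from 208.3 to 288.5 FPKM.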

How the data were processed

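RNA sequencing of mouse liver gave 1 library for each of CD, CD+7KC, WD and WD+7KC. The authors sequenced stranded mRNA libraries as single reads of 75 bases, mapped them to mm10 with TopHat2 2.0.13, Bowtie2 2.2.3 and SAMtools 0.1.19, and deposited FPKM values from Cufflinks 2.2.1 for each gene symbol. The gene annotation and the strand option of counting are not given in the sources used here. From the deposited FPKM, each log2 fold change was taken after adding a pseudocount of 0.1, which understates changes of low genes, and genes at 0 in both of the 2 libraries were left out. With 1 library per group no comparison has replicates, and no test across genes was run. Depth and read numbers were estimated from the steps of low FPKM values over 14081 genes with a single RefSeq mRNA, whose length less 200 bases was used. Between 71.4% and 72.5% of the low values lay within 0.1 of a whole read. Each interval is an exact (Clopper-Pearson) 95% interval of the ratio of reads, calculated with the shortest RefSeq mRNA, and those of a difference between diets use a normal approximation. All cover counting error only. The code was tested on simulated data.

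Genes were named by a rule. It covers the 8 genes, the highest, the lowest and those past 1 in each other list in either 7KC comparison among genes whose mean reached 1 FPKM, the 5 genes nearest in pattern to the member with the widest range, and the nearest member of each member. Other genes named only for their level belong to the lists. The members, lists and rule were chosen with earlier results of these data known. A few genes of the lists, and 1 short list, are not reported here. Gene positions came from GENCODE vM21 (GRCm38) and promoters from RefSeq (GRCm38.p6). Python 3.11.15, numpy 2.4.6, pandas 2.3.3, scipy 1.17.1 and matplotlib 3.10.9 were used. Alternatives were other pseudocounts, a minimum of 1 FPKM, 4 rescalings and another threshold.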

Additional observations from a re-analysis of the deposited data

Results flagged for a closer look

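Abca1 moved in opposite directions with 7KC under the 2 diets. The log2 fold change was 0.126 on WD+7KC relative to WD and -0.25 on CD+7KC relative to CD, with 1 library per group, so that the difference between the diets was not tested against the variation between mice. Abca1 kept these signs under all 7 rescalings, pseudocounts and filters tried, with a range of 0.119 to 0.342 under WD and -0.251 to -0.211 under CD. Abca1 was not alone in this. Abcg5 and Abcg8 also had opposite signs under every setting, at -0.346 to -0.129 and -0.397 to -0.18 under WD. Under CD their values were small, at 0.0328 to 0.0731 and 0.00572 to 0.0457. Nr1h3 and Nr1h2 had opposite signs as deposited but not in TPM.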

How the results depend on the processing

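Each group had 1 library and the labels give no replicate numbers, so that no library was left out and no paired fit was run. For 224 values of the 8 genes, the shift under another pseudocount, filter or scaling was set against the reach of the counting interval to either side of its middle. The shift was no larger for 203 and larger for 21, all of the latter under 2 of the rescalings. Of the 203, the 32 under a minimum of 1 FPKM could not move, since all 8 genes were above it. Another 32, under rescaling by the median ratio, could hardly move, since the deposited values already lay close to equal median ratios. Only Abcg1, on WD+7KC relative to WD and to CD+7KC, was past a log2 fold change of 1, and it did not change sign. In 25 of 32 pairs of gene and comparison every setting gave the same sign. The exceptions were Nr1h3, Nr1h2 and Lpcat3 on WD+7KC relative to WD, Nr1h2, Abca1 and Lpcat3 on WD+7KC relative to CD+7KC, and Mylip on WD relative to CD, where it ran from -0.0302 to 0.00824.

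Rescaling to TPM gave, on WD+7KC relative to WD, 0.163 for Nr1h3, 0.342 for Abca1, -0.129 for Abcg5, -0.18 for Abcg8, 0.0202 for Lpcat3 and a median of 0.159 over the 8 genes. On WD+7KC relative to CD+7KC it gave 0.24 for Nr1h3, 0.131 for Nr1h2, 0.143 for Abca1, -0.763 for Abcg5, -0.702 for Abcg8, 0.146 for Lpcat3 and a median of 0.145. Equal sums without the 20 most abundant genes gave 0.121, 0.3, -0.171, -0.222 and -0.0217 for Nr1h3, Abca1, Abcg5, Abcg8 and Lpcat3 in the first comparison. In the second it gave 0.226, 0.128, -0.777, -0.716 and 0.132, with a median of 0.13. These shifts follow from the lower FPKM sum of WD+7KC. TPM also moved the split of all genes past 1 on WD+7KC relative to CD+7KC from 1274 higher and 733 lower to 2007 higher and 719 lower.

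Of 8 genes, 2 were past a fold of 1.5 on WD+7KC relative to WD, 1 on WD relative to CD and 3 on WD+7KC relative to CD+7KC. These counts were the same with or without a minimum of 1 FPKM, but the background was not. With the minimum it was 12.6%, 16.8% and 22.3% of all genes in that order. Without it, 3310 of 15753, 3778 of 15597 and 4597 of 15898 genes were past a fold of 1.5. With a pseudocount of 1, 0 were past 1 in either comparison of WD+7KC, since Abcg1 is low. All genes past 1 numbered 1418 on WD+7KC relative to WD, and 3310 past a fold of 1.5, 189 with a pseudocount of 1, 2830 with 0.01 and 521 of at least 1 FPKM. The same settings gave 2742, 113, 2380 and 287 on CD+7KC relative to CD (1059 as reported), 3778, 287, 2929 and 602 on WD relative to CD (1511), and 4597, 541, 3582 and 1043 on WD+7KC relative to CD+7KC (2007).

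Among the other lists, TPM and equal sums without the top 20 genes gave medians on WD+7KC relative to WD of 0.241 and 0.199 for other LXR targets, and 0.135 and 0.0929 for other ABCA and ABCG genes. On WD+7KC relative to CD+7KC they gave 0.0846 and 0.07 for other LXR targets, and 0.196 and 0.174 for cholesterol movement. Genes of few reads, such as Abcg1 and Mylip, have the widest counting intervals.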
